A study of Mus musculus with 12 samples.

Results

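The ABC transporter family was examined in mouse colon as the genes whose symbol begins with Abca to Abcg followed by a digit. Of the 22180 genes measured, 48 met this rule. There were 16 in subfamily A, 9 in B, 10 in C, 3 in D, 1 in E, 3 in F and 6 in G. Each was read by 1 probe set. RNA from the colon was hybridised to 12 Affymetrix whole-transcript arrays, 3 for each of 4 genotypes. The genotypes were IL10-/- STING-/- (DKO), IL10-/- STING+/+ (IL10KO), IL10+/+ STING-/- (SKO) and IL10+/+ STING+/+ (WT). The labels give no strain, age or treatment, and all 4 genotypes share the same tissue and labelling. Interleukin-10 is an anti-inflammatory cytokine, and STING is the adaptor that responds to cyclic dinucleotides made from cytosolic DNA. The labels do not state that each array holds a separate animal, so p-values measure the spread between arrays, which may be technical.

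ABC proteins use ATP, bound at a pair of conserved nucleotide-binding folds, to move substrates across membranes. In the gut epithelium, members of subfamilies B, C and G return drugs, bile salts, conjugates and sterols to the lumen or pass them to the blood. Subfamily A moves lipids, subfamily D serves peroxisomes and lysosomes, and subfamilies E and F have no membrane domain and act in translation. Cftr, Tap1 and Tap2 belong to the same superfamily under other symbols and are given separately.

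All values are the deposited signals on the log2 scale, so a difference of 1 is a doubling, and no array has a detection call. Of the 48 genes, 21 were above the median of all genes on every array. Another 4 (Abca16, Abca4, Abcb11 and Abcb5) were below the lower quartile on every array, so little can be read from their signal. These 4 were singled out by their level after the values were seen. The 3 genes of subfamily F and Abce1 were all in the brighter set, as were 4 of 16 in subfamily A, 4 of 9 in B, 5 of 10 in C, 2 of 3 in D and 2 of 6 in G.

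The arrays were checked against their labels before the ABC genes were compared. Sting1 stood at 4.23, 4.13 and 4.34 in DKO, 6.87, 8.09 and 7.33 in IL10KO, 4.40, 4.32 and 4.28 in SKO, and 7.51, 6.40 and 4.56 in WT. The library labelled WT replicate 3 thus lay near the range of the STING-/- arrays. Over all genes its correlation was 0.997, 0.987 and 0.994 with SKO replicates 1, 2 and 3. With WT replicates 1 and 2 it was 0.987 and 0.985. Called results against WT are therefore given with and without this library. For some other genes the value without it is given as well, and no further member was called against WT without it. All 13 measured colon epithelium markers were above the median of genes on every array. Pancreatic acinar markers averaged 8.13 in WT replicate 1 and 10.86 in WT replicate 2, against 4.57 to 5.47 on the other 10 arrays. Values without WT replicate 3 thus rest on these 2 WT arrays. Of 13 measured acinar markers, 12 were then called lower in IL10KO than in WT, against 5 with all arrays. The mean of 16 squamous and sebaceous markers was 4.28 to 5.16 in DKO, 5.26 to 7.27 in IL10KO, 4.19 to 4.47 in SKO and 4.30 to 4.33 in WT. The mean of 13 colon epithelium markers was 10.86 to 10.97 in DKO, 10.31 to 10.44 in IL10KO, 10.71 to 10.88 in SKO and 10.75 to 10.86 in WT. For 9 neutrophil markers it was 4.56 to 4.69 in DKO, 6.13 to 7.78 in IL10KO, 4.49 to 4.61 in SKO and 4.44 to 4.53 in WT. The part of these cell types in the results below was not tested.

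With IL-10 lost and STING present (IL10KO against WT), the signals of the efflux pumps Abcb1a and Abcg2 and of the lipid transporters Abca3 and Abca8b were lower, and that of the lipid transporter Abca12 was higher. These 5 of 48 genes (10.4%) passed the test, against 8.14% of all 22180 genes. The 1 higher gene compares with 3.12% of all genes called higher, and the 4 lower genes with 5.01% called lower. Without the library labelled WT replicate 3, 3 of the 48 were called, namely Abca12, Abcb1a and Abcg2. With STING also lost (DKO against IL10KO), Abcg2, Abcb1a and Abca8b were higher and Abca12 and Abcf2 were lower. These are again 5 of 48 genes (10.4%), against 5.79% of all genes. The 3 higher genes compare with 3.34% of all genes called higher, and the 2 lower genes with 2.45% called lower. A gene was called where limma's adjusted p over all genes was under 0.05. Both comparisons use the same 3 IL10KO arrays, so opposite signs in them are not independent of each other.

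**Figure D1:**
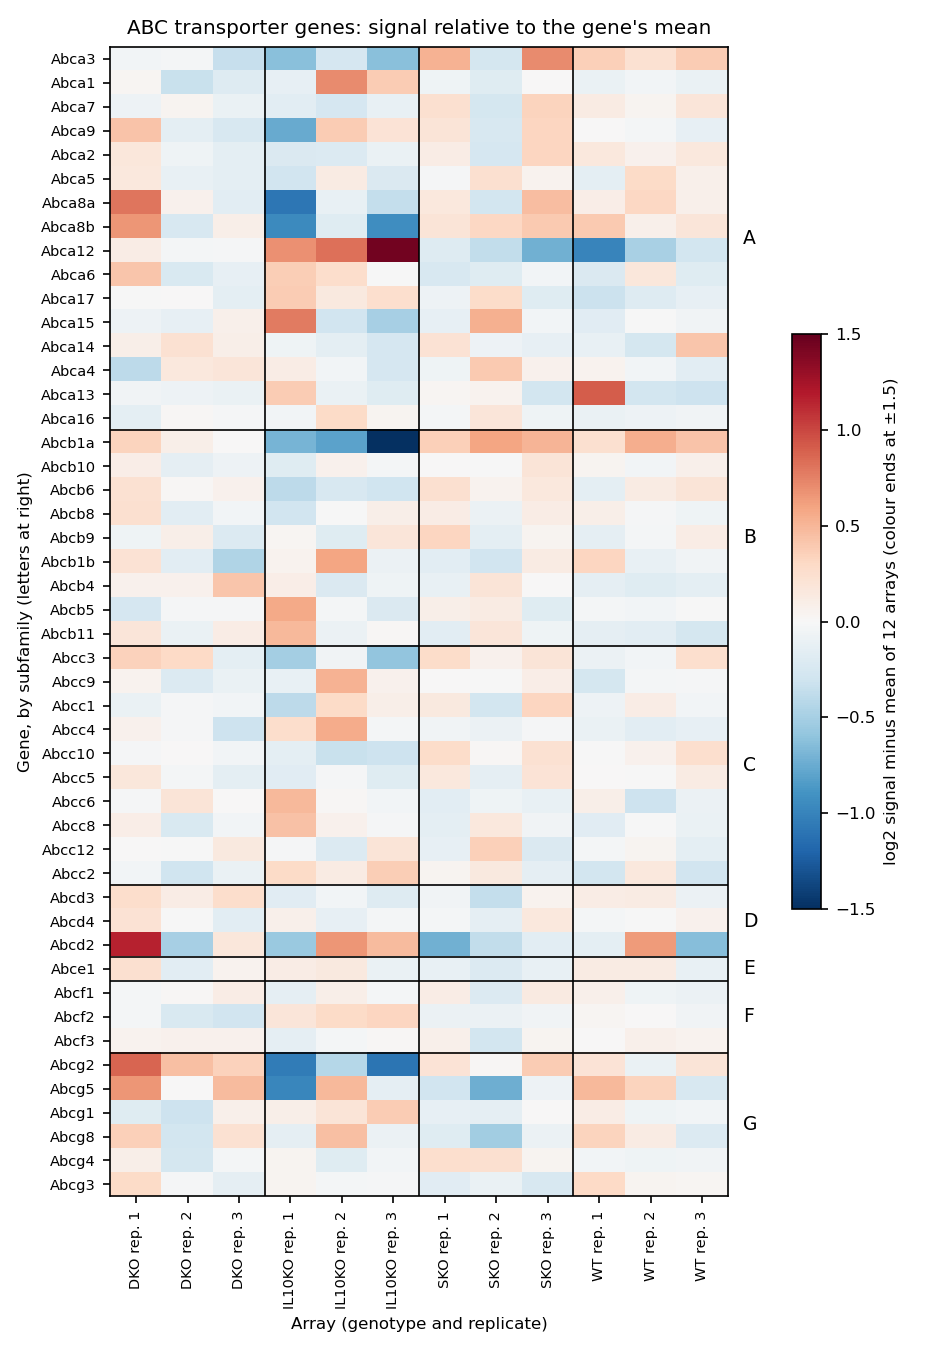
The colour of each cell is the log2 signal of a gene on one array minus the mean of that gene over the 12 arrays, with genes in rows by subfamily (letters at right) and arrays in columns by genotype. Abcb1a and Abcg2 are blue on the 3 IL10KO arrays and Abca12 is red there, while most of the 48 rows are pale.

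Abcb1a, a P-glycoprotein of the luminal membrane that pumps many drugs and xenobiotics out of enterocytes, had the largest fall among the members in IL10KO colon. Its signal was 10.36, 10.11 and 10.03 in DKO, 9.32, 9.22 and 8.44 in IL10KO, 10.38, 10.61 and 10.54 in SKO, and 10.26, 10.57 and 10.44 in WT. Every IL10KO array lay below all 9 other arrays. The means were 8.99 ± 0.48 in IL10KO and 10.42 ± 0.15 in WT (SD, n = 3 each). The log2 difference of IL10KO from WT was -1.43 ± 0.20 (SE, limma adjusted p = 0.0012), which is 2.70-fold lower. In DKO the mean was 10.16 ± 0.17 (SD, n = 3), and DKO exceeded IL10KO by 1.17 ± 0.20 (SE, limma adjusted p = 0.00504), which is 2.26-fold. Without the library labelled WT replicate 3 the difference of IL10KO from WT was -1.42 (limma adjusted p = 0.00528).

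Abcg2, the breast cancer resistance protein that exports urate, porphyrins and drug conjugates at the luminal membrane, fell in IL10KO as well. Signals were 8.34, 7.92 and 7.81 in DKO, 6.42, 7.04 and 6.38 in IL10KO, 7.68, 7.48 and 7.84 in SKO, and 7.68, 7.36 and 7.66 in WT. The 3 IL10KO arrays were the lowest of the 12, and the 3 DKO arrays were all above the 3 WT arrays. IL10KO averaged 6.61 ± 0.37 and WT 7.57 ± 0.18 (SD, n = 3 each), a difference of -0.96 ± 0.20 (SE, limma adjusted p = 0.0110). DKO averaged 8.02 ± 0.28 (SD, n = 3) and stood 1.41 ± 0.20 above IL10KO (SE, limma adjusted p = 0.00143), or 2.66-fold. Leaving out the library labelled WT replicate 3 gave a difference of -0.91 from WT (limma adjusted p = 0.0437). With IL10KO replicate 1, SKO replicate 2 and WT replicate 3 all left out it was -0.81 (limma adjusted p = 0.0893).

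Both pumps are known from the gut epithelium, and colon epithelium markers moved the same way. Of the 13 measured markers, 5 fell in IL10KO against WT, also without WT replicate 3, and 5 rose in DKO against IL10KO. The fall was not confined to epithelium. With all arrays, calls in the same directions were made for 8 of 10 smooth muscle, 2 of 8 goblet cell and 2 of 8 neuron and glia markers. Probe sets differ in their response, so a signal relative to a marker mean is compared between arrays only. Abcb1a relative to the mean of the 13 markers was -1.12, -1.12 and -1.87 in IL10KO, against -0.60, -0.18 and -0.42 in WT. The IL10KO arrays stayed below the WT arrays on this relative scale, with a difference of -0.97. Abcg2 relative to the same mean was -4.02, -3.29 and -3.93 in IL10KO, against -3.19, -3.38 and -3.20 in WT. There the groups overlapped, with a difference of -0.49. On the same scale DKO exceeded IL10KO by 0.62 for Abcb1a and by 0.86 for Abcg2, and for both genes the DKO arrays lay above all IL10KO arrays. In these bulk samples, fewer cells of a type and less RNA per cell cannot be told apart.

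Abca12, which loads glucosylceramide into the lamellar granules of keratinocytes, was the member with the largest difference between IL10KO and WT. It read 4.77, 4.63 and 4.65 in DKO, 5.35, 5.49 and 6.11 in IL10KO, 4.47, 4.30 and 3.94 in SKO, and 3.67, 4.17 and 4.39 in WT. The 3 IL10KO arrays were the highest of the 12, and the 3 DKO arrays came next. WT replicate 1 lay below the lower quartile of genes on its array (3.97). IL10KO replicates 1 and 2 lay below the medians of genes on theirs (5.57 and 5.56), and IL10KO replicate 3 above its median. IL10KO averaged 5.65 ± 0.40 and WT 4.08 ± 0.37 (SD, n = 3 each). The difference was 1.57 ± 0.22 (SE, limma adjusted p = 0.00118), or 2.97-fold higher. It was 1.73 (limma adjusted p = 0.00146) when the library labelled WT replicate 3 was left out. DKO averaged 4.68 ± 0.08 (SD, n = 3), and its difference from IL10KO was -0.97 ± 0.22 (SE, limma adjusted p = 0.0223). Leaving out any 1 DKO array or IL10KO replicate 3 ended that second call, with differences from -1.11 to -0.74 over all single omissions and adjusted p up to 0.0812.

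Squamous and sebaceous markers were also high in IL10KO, where 13 of 16 rose against WT (9 of 16 without WT replicate 3) and 7 of 16 fell in DKO against IL10KO. Their mean was 5.26 in IL10KO replicate 1, 7.14 in replicate 2 and 7.27 in replicate 3. Abca12 relative to that mean was 0.09, -1.65 and -1.17 in IL10KO, against -0.65, -0.13 and 0.06 in WT, so the groups overlapped. On that relative scale the difference of IL10KO from WT was -0.67 and that of DKO from IL10KO was 0.99, both opposite in sign to the differences of the signal itself. Relative to the mean of the colon epithelium markers they were 2.04 and -1.52, with the signs of the signal itself. In WT the squamous mean was 4.30 to 4.33, where the lower quartile of genes was 3.96 to 4.02. Without IL10KO replicates 2 and 3, a setting chosen after seeing the data, Abca12 was 1.27 higher in IL10KO than in WT. Under the same setting the difference of DKO from IL10KO was -0.67. That setting leaves 1 IL10KO array, so no p-value is given. The squamous mean of that array, 5.26, was still above that of every array of the other genotypes. The setting therefore cannot separate Abca12 from these markers.

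**Figure D2:**
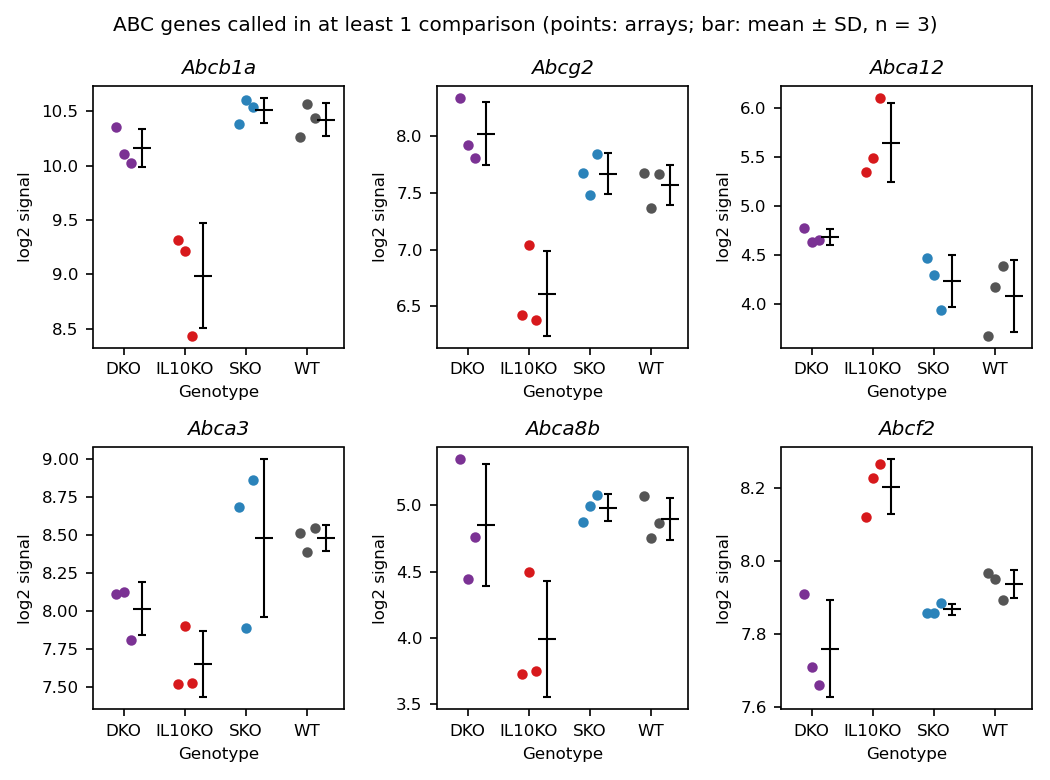
Each panel shows the log2 signal of one called ABC gene on the 12 arrays by genotype, with points for arrays and bars for mean ± SD (n = 3). In the panels of Abcb1a and Abcg2 the IL10KO points lie below every other point, and in the panel of Abca12 they lie above.

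The stretches upstream of the 3 members with the largest differences are shown so that the letters at their starts can be read. Sequences are from RefSeq on GRCm38.p6, 250 bases ending at the listed start, read 5′ to 3′ on the strand of the gene. Of the 48 members, 38 matched the table with 45 windows. The motifs searched were the TATA box TATAAA, the box CCAAT, the GC box GGGCGG, the dioxin receptor core GCGTG and the antioxidant core TGACNNNGC. Both strands were searched, and capitals mark matches. Abcb1a (chr5:8566841-8567090, plus strand) and Abca12 (chr1:71414911-71415160, minus strand) had none of these letters in the window. Abcg2 has 3 listed starts, and the window with the most matches (chr6:58640296-58640545, plus strand) held 4 matches to GGGCGG or its complement. Its other windows, starting at 58584283 and 58596422, held 0 and 2 such matches. The window shown was picked by its number of matches, so it does not stand for the gene.
Abcb1a: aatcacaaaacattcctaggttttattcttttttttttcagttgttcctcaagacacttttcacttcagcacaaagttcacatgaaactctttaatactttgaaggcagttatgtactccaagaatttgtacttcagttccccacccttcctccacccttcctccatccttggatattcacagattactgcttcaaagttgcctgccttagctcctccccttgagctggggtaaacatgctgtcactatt
Abcg2: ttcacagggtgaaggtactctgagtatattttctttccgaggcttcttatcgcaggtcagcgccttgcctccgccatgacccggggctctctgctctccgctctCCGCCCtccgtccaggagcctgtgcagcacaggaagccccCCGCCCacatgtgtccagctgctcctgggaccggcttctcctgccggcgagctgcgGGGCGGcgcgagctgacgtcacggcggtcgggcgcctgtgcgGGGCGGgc
Abca12: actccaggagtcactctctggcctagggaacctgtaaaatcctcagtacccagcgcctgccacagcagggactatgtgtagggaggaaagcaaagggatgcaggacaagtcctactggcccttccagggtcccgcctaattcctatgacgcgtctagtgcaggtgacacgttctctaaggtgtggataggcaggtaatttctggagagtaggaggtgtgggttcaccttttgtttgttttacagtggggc
Across the 45 windows, GGGCGG was found in 44.4%, against 32.7% of 32851 windows of all genes. TATAAA was found in 11.1% of the members' windows, against 12.4% of all windows, and CCAAT in 28.9%, against 33.8%. GCGTG was found in 28.9% of the members' windows, against 28.2% of all windows, and TGACNNNGC in 8.89%, against 10.2%. A match is a description of the letters only.

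Abca3, known from lung for moving surfactant phospholipids into lamellar bodies, fell in IL10KO against WT. It stood at 8.11, 8.12 and 7.81 in DKO, 7.52, 7.90 and 7.53 in IL10KO, 8.68, 7.89 and 8.86 in SKO, and 8.51, 8.39 and 8.54 in WT. The IL10KO arrays were all below the WT arrays, while DKO replicate 3 and SKO replicate 2 lay below the highest IL10KO array. The difference of IL10KO from WT was -0.83 ± 0.21 (SE, limma adjusted p = 0.0314). It was not called when IL10KO replicate 1, IL10KO replicate 3 or any 1 WT array was left out. The values over single omissions ran from -0.95 to -0.76, with adjusted p up to 0.0952, reached without the library labelled WT replicate 3. DKO differed from IL10KO by 0.36 ± 0.21 (SE, limma adjusted p = 0.305), which did not pass. Relative to the mean of the 13 colon epithelium markers, Abca3 differed by -0.36 in IL10KO against WT and by -0.19 in DKO against IL10KO, the second opposite in sign to the difference of the signal itself.

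Abca8b, a lipid transporter in a row of related genes on chromosome 11, fell in IL10KO and rose in DKO against IL10KO. Its signal was 5.35, 4.44 and 4.76 in DKO, 3.72, 4.50 and 3.75 in IL10KO, 4.88, 4.99 and 5.08 in SKO, and 5.07, 4.76 and 4.86 in WT. IL10KO replicate 2 lay above DKO replicate 2, so those groups overlapped, while all IL10KO arrays were below all WT arrays. IL10KO replicates 1 and 3 lay below the lower quartile of genes on their arrays (4.26 and 4.09). The differences were -0.91 ± 0.23 for IL10KO from WT (SE, limma adjusted p = 0.0308) and 0.86 ± 0.23 for DKO from IL10KO (SE, limma adjusted p = 0.0464). The first was lost without IL10KO replicate 1, IL10KO replicate 3 or any 1 WT array, with values from -1.16 to -0.77 and adjusted p up to 0.102. The second was kept only without DKO replicate 2, IL10KO replicate 2 or SKO replicate 2 among the 12 single omissions, with values from 0.61 to 1.11 and adjusted p up to 0.189. Its neighbours on the chromosome run in the order Abca8b, Abca8a, Abca9, Abca6 and Abca5. Abca8a, singled out here as the nearest neighbour after its values were seen, differed by -0.68 ± 0.28 in IL10KO against WT (SE, limma adjusted p = 0.143). Abca9 differed by -0.01 ± 0.26 (SE, limma adjusted p = 0.984), and by -0.05 without WT replicate 3.

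Other bright members of subfamily A did not pass in any comparison. Abca1, which loads cholesterol and phospholipid onto apolipoprotein A-I, was 7.04, 6.68 and 6.81 in DKO, 6.89, 7.72 and 7.39 in IL10KO, 6.95, 6.83 and 7.02 in SKO, and 6.91, 6.97 and 6.92 in WT. IL10KO replicates 2 and 3 were its highest arrays, while IL10KO replicate 1 lay below the WT arrays. The difference of IL10KO from WT was 0.40 ± 0.18 (SE, limma adjusted p = 0.178), and that of DKO from IL10KO was -0.49 ± 0.18 (SE, limma adjusted p = 0.120). Abca7, a phospholipid exporter related to Abca1, differed by -0.29 ± 0.15 (SE, limma adjusted p = 0.248) and 0.13 ± 0.15 (SE, limma adjusted p = 0.619) in these comparisons.

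The other 8 of the 9 subfamily B genes were not called. Abcb1b, the second rodent P-glycoprotein gene and the next gene to Abcb1a on chromosome 5, is named here after its values were seen. It had 5.19, 4.82 and 4.53 in DKO, 5.03, 5.56 and 4.88 in IL10KO, 4.82, 4.69 and 5.10 in SKO, and 5.29, 4.86 and 4.92 in WT. The genotypes overlapped, and the difference of IL10KO from WT was 0.14 ± 0.21 (SE, limma adjusted p = 0.712), or 0.08 without WT replicate 3. Whether the difference between the pair of genes is itself beyond chance was not tested. Abcb6, a porphyrin transporter, had 7.57, 7.36 and 7.41 in DKO, 6.96, 7.10 and 7.05 in IL10KO, 7.59, 7.40 and 7.50 in SKO, and 7.20, 7.47 and 7.54 in WT. The IL10KO arrays lay below all others, yet the differences of -0.37 ± 0.13 from WT (SE, limma adjusted p = 0.0944) and of 0.41 ± 0.13 for DKO from IL10KO (SE, limma adjusted p = 0.0767) missed the threshold. Without WT replicate 3 the first difference was -0.30 (limma adjusted p = 0.271). The mitochondrial members Abcb8 and Abcb10 differed by at most 0.08 in size in both comparisons, and by -0.11 and -0.05 from WT without WT replicate 3.

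None of the 10 subfamily C genes was called. Abcc3, the basolateral exporter of bile salts and glucuronides in enterocytes, read 9.52, 9.47 and 9.03 in DKO, 8.67, 9.12 and 8.58 in IL10KO, 9.45, 9.24 and 9.37 in SKO, and 9.08, 9.13 and 9.42 in WT. IL10KO replicates 1 and 3 were the lowest of the 12 arrays, while IL10KO replicate 2 lay within the range of WT. The difference of DKO from IL10KO was 0.55 ± 0.18 (SE, limma adjusted p = 0.0820), and that of IL10KO from WT was -0.42 ± 0.18 (SE, limma adjusted p = 0.150), or -0.31 without WT replicate 3. Abcc1, the multidrug resistance protein that exports glutathione conjugates, differed by -0.01 ± 0.18 in IL10KO against WT (SE, limma adjusted p = 0.987), or by -0.02 without WT replicate 3.

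Abcc9 encodes SUR2, the regulatory subunit of ATP-sensitive potassium channels in smooth and cardiac muscle, and does not itself pump a substrate. It was 8.24, 7.98 and 8.08 in DKO, 8.07, 8.71 and 8.25 in IL10KO, 8.18, 8.17 and 8.28 in SKO, and 7.91, 8.15 and 8.16 in WT. The groups overlapped, and the difference of IL10KO from WT was 0.27 ± 0.16 (SE, limma adjusted p = 0.311). Smooth muscle markers fell on the same arrays, with 8 of 10 lower in IL10KO than in WT (7 of 10 without WT replicate 3) and 8 of 10 higher in DKO than in IL10KO. Relative to their mean, Abcc9 was 1.05 higher in IL10KO than in WT and differed by -1.07 in DKO against IL10KO. Kcnj8, its pore subunit in vascular muscle, differed by 0.63 ± 0.23 in IL10KO against WT (SE, limma adjusted p = 0.103) and by -0.66 ± 0.23 in DKO against IL10KO (SE, limma adjusted p = 0.100). Without WT replicate 3 the first difference was 0.72 (limma adjusted p = 0.139). Neither of the 2 listed pore subunits was called, Kcnj11 included.

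Abcg5 and Abcg8 form the heterodimer that returns plant sterols and cholesterol to the gut lumen, and the pair lies head to head on chromosome 17. Neither was called in any comparison. Abcg5 had 7.01, 6.35 and 6.83 in DKO, 5.37, 6.83 and 6.21 in IL10KO, 6.06, 5.61 and 6.27 in SKO, and 6.83, 6.68 and 6.10 in WT. Abcg8 had 6.24, 5.60 and 6.11 in DKO, 5.75, 6.34 and 5.79 in IL10KO, 5.70, 5.36 and 5.80 in SKO, and 6.22, 6.01 and 5.68 in WT. Of the 6 highest arrays of each gene, 5 were the same, and they came from DKO, IL10KO and WT. All 3 DKO arrays were above all 3 SKO arrays for Abcg5, with a difference of 0.75 ± 0.32 (SE, limma adjusted p = 0.998) that is far from the threshold. The 109 bases between the divergent starts (chr17:84683012-84683120 on GRCm38.p6, plus strand, from RefSeq) are shown because the start of Abcg5 and 1 of the 2 listed starts of Abcg8 face each other across them. The other listed start of Abcg8 lies within Abcg5. They hold 1 match to TATAAA, on the minus strand, in capitals.
Abcg5 and Abcg8: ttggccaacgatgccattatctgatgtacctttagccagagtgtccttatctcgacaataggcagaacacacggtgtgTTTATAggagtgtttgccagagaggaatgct
Abcg1, which passes cholesterol to high-density lipoprotein, differed by 0.22 ± 0.14 in IL10KO against WT (SE, limma adjusted p = 0.330) and by -0.36 ± 0.14 in DKO against IL10KO (SE, limma adjusted p = 0.128).

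The peroxisomal fatty acid importers Abcd2 and Abcd3 and the lysosomal cobalamin transporter Abcd4 were not called. Abcd2 spread widely within genotypes, with 5.83, 4.17 and 4.84 in DKO, 4.11, 5.34 and 5.15 in IL10KO, 3.95, 4.30 and 4.52 in SKO, and 4.53, 5.31 and 4.04 in WT. Its highest arrays were DKO replicate 1, IL10KO replicate 2 and WT replicate 2, 1 in each of 3 genotypes. The mean of 7 steroidogenic and adipose markers was 4.96 to 6.17 in DKO, 5.31 to 5.78 in IL10KO, 4.92 to 5.08 in SKO and 4.89 to 6.06 in WT. DKO replicate 1 and WT replicate 2 were the highest arrays of that mean as well. Its part in the spread of Abcd2 was not tested. Abcd3 was 9.52, 9.38 and 9.52 in DKO, 9.09, 9.22 and 9.06 in IL10KO, 9.20, 8.90 and 9.31 in SKO, and 9.37, 9.38 and 9.17 in WT. The DKO arrays lay above all IL10KO and SKO arrays, but the difference from IL10KO, 0.35 ± 0.14 (SE, limma adjusted p = 0.137), did not pass.

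**Figure D3:**
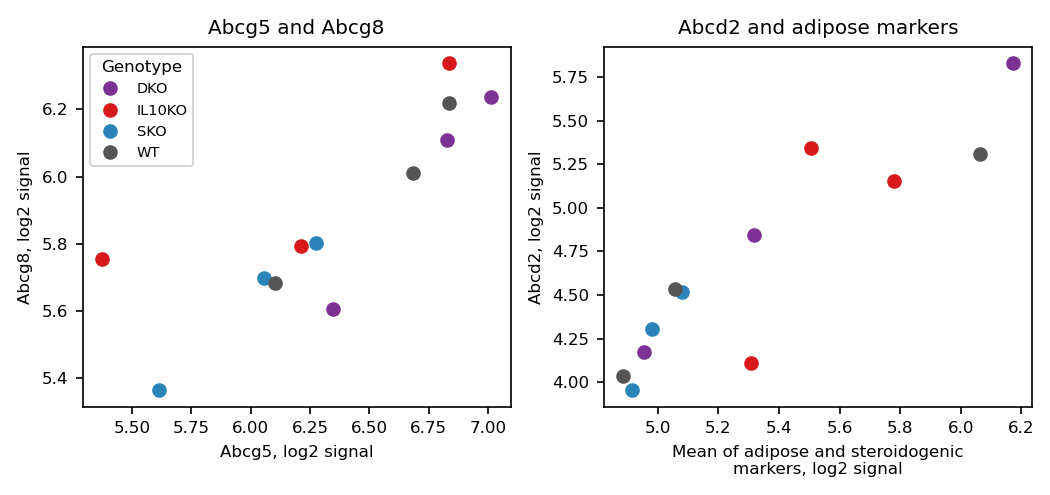
The left panel plots the log2 signal of Abcg8 against that of Abcg5, and the right panel plots Abcd2 against the mean log2 signal of 7 adipose and steroidogenic markers, with a point for each of the 12 arrays coloured by genotype. In both panels the high points come from several genotypes rather than from one.

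The members without a membrane domain changed little. Abce1, which splits ribosomes after termination, differed by 0.01 ± 0.14 in IL10KO against WT (SE, limma adjusted p = 0.981), by -0.07 without WT replicate 3, and by -0.01 ± 0.14 in DKO against IL10KO (SE, limma adjusted p = 0.967). Abcf1 and Abcf3 differed by at most 0.11 in size in both comparisons. Abcf2 read 7.91, 7.71 and 7.66 in DKO, 8.12, 8.23 and 8.27 in IL10KO, 7.86, 7.86 and 7.89 in SKO, and 7.97, 7.95 and 7.89 in WT. The IL10KO arrays were the highest of the 12 within a narrow range. DKO differed from IL10KO by -0.45 ± 0.12 (SE, limma adjusted p = 0.0411), or 1.36-fold lower, and IL10KO from WT by 0.27 ± 0.12 (SE, limma adjusted p = 0.166). The call was kept only without IL10KO replicate 2 or SKO replicate 2 among the 12 single omissions, with values from -0.52 to -0.39 and adjusted p up to 0.142.

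**Figure D4:**
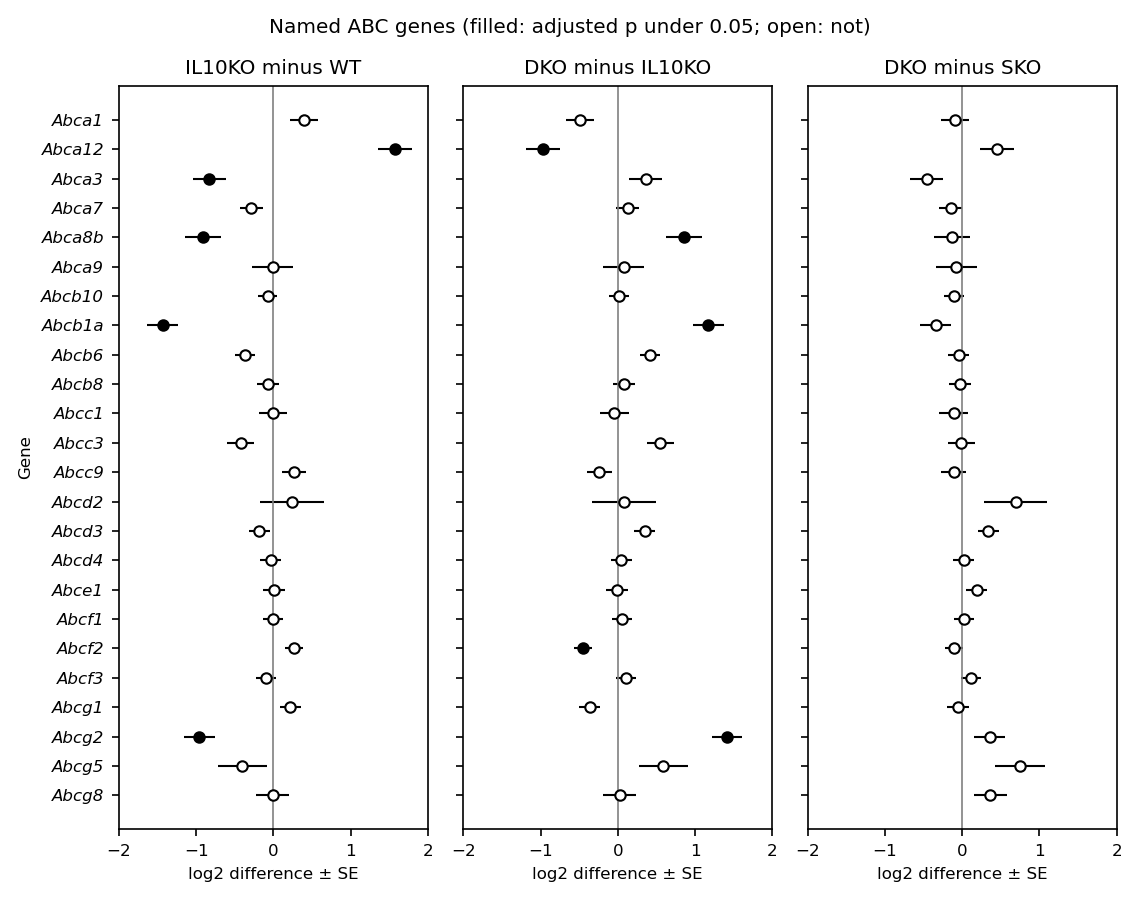
Points are log2 differences ± SE for the 24 named ABC genes in IL10KO minus WT, DKO minus IL10KO and DKO minus SKO, filled where the adjusted p was under 0.05. The filled points number 5 in each of the first 2 panels and 0 in the third.

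With both IL-10 and STING lost, no member was called against SKO or WT by limma. DKO against SKO gave 0 of 48 members (0.0451% of all genes, 10 genes), with 3 members and 1059 of all genes at an unadjusted p under 0.05. The 3 were Abca3, Abcd3 and Abcg5. DKO against WT gave 0 of 48 (0.0451% of all genes), with 4 members and 648 genes at an unadjusted p under 0.05. Those 4 were Abca12, Abca3, Abcb4 and Abcg2. Abcb4 is named because of this small count, after its values were seen. SKO against WT gave 0 of 48, and 0% of all genes were called. At an unadjusted p under 0.05 it gave 0 members and 454 genes. No member was called in either comparison with WT when WT replicate 3 was left out. With all arrays, Sting1 itself was not called by limma in SKO or DKO against WT. Its differences were -1.82 ± 0.52 and -1.92 ± 0.52 (SE). Both comparisons thus missed the targeted gene, so their lack of calls says little about STING loss.

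Whether the effect of IL-10 loss differed with STING was tested as (DKO minus SKO) minus (IL10KO minus WT). No member was called by limma, against 0.645% of all genes (143 genes), and 9 members and 3480 genes had an unadjusted p under 0.05. Abcg2 came nearest, with a difference of differences of 1.31 ± 0.28 (SE, limma adjusted p = 0.0537). It passed under several other settings, such as quantile normalization. Abcb1a had 1.09 ± 0.29 (SE, limma adjusted p = 0.114) and Abca12 -1.12 ± 0.31 (SE, limma adjusted p = 0.134). Without WT replicate 3 the values were 1.26 for Abcg2 (limma adjusted p = 0.0988), 1.08 for Abcb1a (limma adjusted p = 0.180) and -1.28 for Abca12 (limma adjusted p = 0.107).

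Over all 48 members, the median sizes of the difference and the shares of groups that did not overlap stood near those of all genes. The share called in DKO against IL10KO was 10.4% of members against 5.79% of all genes, and it rests on 5 genes. Of these, Abca8b kept its call in 9 of 20 other settings and Abcf2 in 6 of 20. Without WT replicate 3, 2 of the 48 members were called higher and 1 lower, beside 639 and 464 of all 22180 genes. The share is therefore not read as a trait of the family. The median difference of the members was -0.01 in IL10KO against WT, beside 0.03 for all genes, and 0.04 in DKO against IL10KO, beside -0.04. The median size of the difference was 0.21 for members and 0.22 for all genes in IL10KO against WT, and 0.18 and 0.22 in DKO against IL10KO. In IL10KO against WT, 16 members (33.3%) had groups that did not overlap, against 30% of all genes. In DKO against IL10KO, 13 members (27.1%) did not overlap, against 27.2% of all genes.

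The other genes of the ABC pathways were followed as lists. Of 20 measured nuclear receptors and regulators of ABC genes, 4 fell and 0 rose in IL10KO against WT, beside 5.01% of all genes called lower and 3.12% called higher. The median difference was -0.18, beside 0.03 for all genes. Between DKO and IL10KO 2 rose and 0 fell in DKO, beside 3.34% called higher and 2.45% called lower, with a median of 0.16, beside -0.04 for all genes. Nr1i2, the xenobiotic receptor PXR that drives Abcb1 genes, had 8.71, 8.31 and 8.18 in DKO, 7.72, 8.0 and 7.47 in IL10KO, 8.39, 8.29 and 8.52 in SKO, and 8.48, 8.38 and 8.33 in WT. The IL10KO arrays were the lowest of the 12. The difference of IL10KO from WT was -0.67 ± 0.17 (SE, limma adjusted p = 0.0269), and that of DKO from IL10KO was 0.67 ± 0.17 (SE, limma adjusted p = 0.0314). Vdr, the vitamin D receptor, moved likewise, by -0.73 ± 0.17 (SE, limma adjusted p = 0.0199) and 0.75 ± 0.17 (SE, limma adjusted p = 0.0226). Hnf4a, an intestinal epithelial transcription factor, and Ppargc1a, a coactivator of mitochondrial genes, fell in IL10KO by 0.60 ± 0.14 and 0.80 ± 0.21 (SE, limma adjusted p = 0.0184 and 0.0309). Ppargc1a at -0.90 (limma adjusted p = 0.0471) and Hnf4a at -0.65 (limma adjusted p = 0.0423) kept their calls when WT replicate 3 was omitted. Nr1i2 at -0.70 (limma adjusted p = 0.0645) and Vdr at -0.72 (limma adjusted p = 0.0640) lost theirs. Leaving out IL10KO replicate 3 or WT replicate 1 ended all 4 of these calls, with adjusted p up to 0.109. IL10KO replicate 1 ended those of Nr1i2, Vdr and Ppargc1a, and WT replicate 2 those of Nr1i2, Hnf4a and Ppargc1a. In DKO against IL10KO both calls ended without DKO replicate 1, DKO replicate 2, IL10KO replicate 1 or IL10KO replicate 3, with adjusted p up to 0.142. These calls stand beside the fall of 5 of 13 colon epithelium markers noted above.

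**Figure D5:**
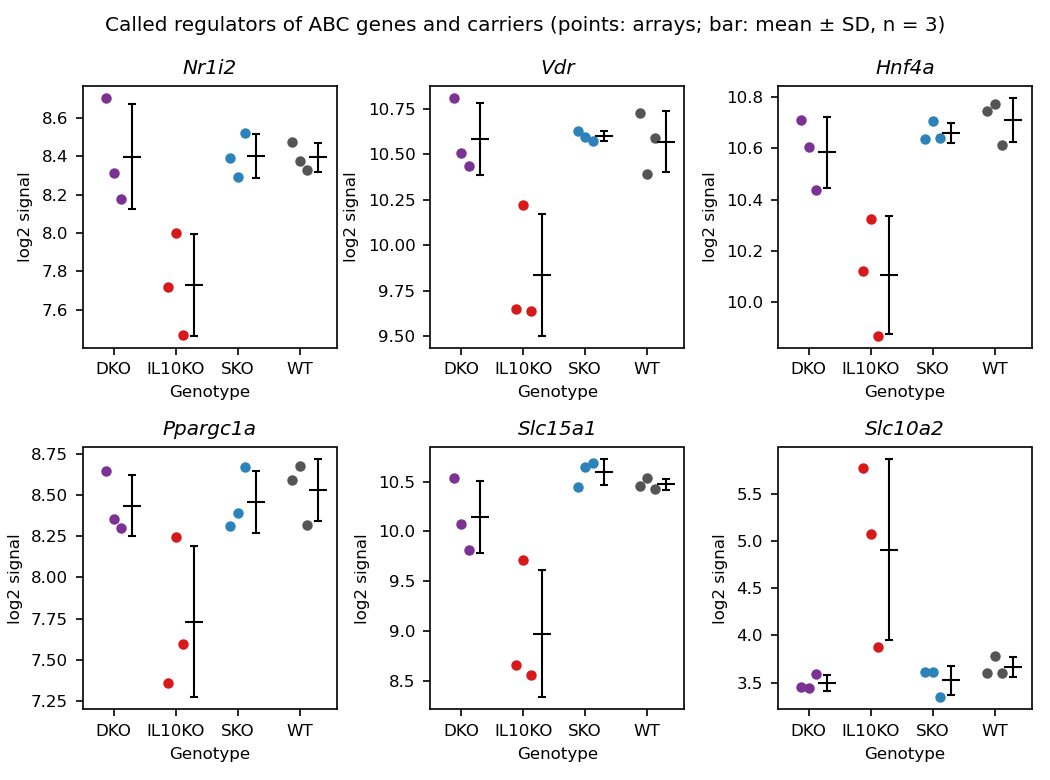
Each panel shows the log2 signal of a regulator of ABC genes or a carrier on the 12 arrays by genotype, with points for arrays and bars for mean ± SD (n = 3). The IL10KO points are the lowest in the panels of Nr1i2, Vdr, Hnf4a, Ppargc1a and Slc15a1 and the highest in the panel of Slc10a2.

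Among 13 measured bile acid and organic anion carriers, 1 rose and 3 fell in IL10KO against WT, and 3 rose and 1 fell in DKO against IL10KO. Among all genes, 3.12% rose and 5.01% fell in the first comparison, and 3.34% rose and 2.45% fell in the second. Slc15a1, the peptide transporter PEPT1, had 10.53, 10.08 and 9.82 in DKO, 8.66, 9.71 and 8.55 in IL10KO, 10.45, 10.65 and 10.69 in SKO, and 10.46, 10.54 and 10.43 in WT. The IL10KO arrays were the lowest, with a difference from WT of -1.50 ± 0.26 (SE, limma adjusted p = 0.0039). Slc26a3, the chloride-bicarbonate exchanger of colonocytes, differed by -0.96 ± 0.21 (SE, limma adjusted p = 0.0147), and it also stands in the colon epithelium list. Slc22a18, an organic cation transporter, fell by 0.58 ± 0.15 (SE, limma adjusted p = 0.0332). Slc10a2, the ileal bile acid importer ASBT, was 3.45, 3.44 and 3.59 in DKO, 5.77, 5.07 and 3.88 in IL10KO, 3.61, 3.62 and 3.35 in SKO, and 3.61, 3.79 and 3.60 in WT. It was high in IL10KO replicates 1 and 2, and the third IL10KO array lay only just above the other genotypes. Its difference from WT was 1.24 ± 0.32 (SE, limma adjusted p = 0.0330). All WT values of Slc10a2 and that of IL10KO replicate 3 lay below the lower quartile of genes on their arrays. When WT replicate 3 was left out, Slc15a1 at -1.52 (limma adjusted p = 0.0139) and Slc26a3 at -0.95 (limma adjusted p = 0.0472) were still called, and Slc15a1 passed in all 12 single omissions. Slc10a2 at 1.21 (limma adjusted p = 0.0930) and Slc22a18 at -0.44 (limma adjusted p = 0.138) were not. Slc26a3 was lost without WT replicate 1 (limma adjusted p = 0.0502). Slc10a2 was also lost without IL10KO replicate 1, IL10KO replicate 2, WT replicate 1 or WT replicate 2, with values from 0.81 to 1.76 over single omissions. Slc22a18 was also lost without DKO replicate 2, IL10KO replicate 3 or WT replicate 1. In DKO against IL10KO, the differences were 1.17 ± 0.26 for Slc15a1 (SE, limma adjusted p = 0.0187), 1.01 ± 0.21 for Slc26a3 (SE, limma adjusted p = 0.0143), 0.65 ± 0.15 for Slc22a18 (SE, limma adjusted p = 0.0250) and -1.41 ± 0.32 for Slc10a2 (SE, limma adjusted p = 0.0232). Each of these 4 was lost without DKO replicate 1 or DKO replicate 2. Leaving out IL10KO replicate 1 ended the calls of Slc15a1 and Slc10a2, and IL10KO replicate 3 those of Slc15a1 and Slc22a18, with adjusted p up to 0.108.

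Sterol and lipoprotein partners gave 1 call of 15 measured genes in each of these comparisons, beside 8.14% of all genes in IL10KO against WT and 5.79% in DKO against IL10KO. Apoe, the lipoprotein component made by macrophages among other cells, was 0.78 ± 0.16 higher in IL10KO than in WT (SE, limma adjusted p = 0.0123) and differed by -0.78 ± 0.16 in DKO against IL10KO (SE, limma adjusted p = 0.0155). Of 10 measured macrophage and monocyte markers, 4 rose in IL10KO against WT and 3 fell in DKO against IL10KO. Their part in the Apoe signal was not tested. Without the library labelled WT replicate 3 the difference of IL10KO from WT was 0.62 (limma adjusted p = 0.0556), and the difference of DKO from IL10KO was lost without DKO replicate 1 or DKO replicate 2 (adjusted p up to 0.0713). Of 16 peroxisomal fatty acid oxidation genes, 1 rose and 2 fell in IL10KO against WT, beside 3.12% and 5.01% of all genes. Acox2, an oxidase of branched and bile acid side chains, differed by 0.68 ± 0.15 (SE, limma adjusted p = 0.0151). It was dim, with means of 3.63 in WT and 4.31 in IL10KO. The lower quartile of genes was 3.96 to 4.02 on the WT arrays and 4.05 to 4.26 on the IL10KO arrays. Ehhadh, the bifunctional enzyme of peroxisomal β-oxidation, differed by -0.72 ± 0.18 (SE, limma adjusted p = 0.0302), and Cat, catalase, by -0.74 ± 0.21 (SE, limma adjusted p = 0.0468). In DKO against IL10KO, Ehhadh rose by 0.74 ± 0.18 (SE, limma adjusted p = 0.0325) and Acox2 fell by 0.63 ± 0.15 (SE, limma adjusted p = 0.0260). Without the library labelled WT replicate 3, none of the 3 calls against WT remained, with 0.59 for Acox2 (limma adjusted p = 0.0694), -0.80 for Ehhadh (limma adjusted p = 0.0514) and -0.78 for Cat (limma adjusted p = 0.0988). Ehhadh was also lost without IL10KO replicate 1, IL10KO replicate 3, WT replicate 1 or WT replicate 2. Cat was kept in 3 of 12 single omissions, those of DKO replicate 1, IL10KO replicate 2 and SKO replicate 2. Both calls of DKO against IL10KO were lost without DKO replicate 1, DKO replicate 2 or IL10KO replicate 1, and that of Ehhadh also without IL10KO replicate 3, with adjusted p up to 0.144. None of 12 measured mitochondrial iron-sulfur and heme genes was called.

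The superfamily members under other symbols were not called either, and their values are given for that reason. The chloride channel Cftr differed by 0.20 ± 0.17 in IL10KO against WT (SE, limma adjusted p = 0.477), or by 0.12 without WT replicate 3. Tap1, a subunit of the peptide pump that feeds MHC class I, had 8.17, 8.67 and 8.50 in DKO, 9.24, 8.90 and 8.99 in IL10KO, 7.35, 7.03 and 7.88 in SKO, and 9.73, 8.13 and 7.15 in WT. WT replicates 1 and 3 were apart by more than any IL10KO array was from another, and the difference of 0.71 ± 0.45 (SE, limma adjusted p = 0.339) did not pass. Without WT replicate 3 it was 0.12 ± 0.37 (SE, limma adjusted p = 0.886). Tap2 and the TAP-associated tapasin gene Tapbp differed by -0.10 ± 0.25 (SE, limma adjusted p = 0.839) and -0.29 ± 0.16 (SE, limma adjusted p = 0.254). Without WT replicate 3 these were -0.43 ± 0.21 (SE, limma adjusted p = 0.256) and -0.38 ± 0.18 (SE, limma adjusted p = 0.242).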

How the data were processed

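Per the labels' protocols, colon total RNA was purified on QIAGEN columns, and 300 ng went into each WT PLUS labelling. The authors deposited 1 table of log2 signals, a row per probe set. The submitters' processing notes name Affymetrix Expression Console 1.3.1.187. The sources used here state neither background correction and normalization nor the genome build of the array, and the log2 scale rests on the range of the values. Of 41345 probe sets, 23521 had 1 symbol in the platform annotation, 1814 had several and 16010 were unnamed. The brightest probe set stood for each gene, which gave 22180 genes. All 48 members matched the gene table and no symbol was updated.

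Groups came from the genotype in the labels, and replicate numbers follow sample order and pair nothing. All 12 arrays were fitted together in limma 3.58.1 (R 4.3.3), with a mean per genotype, 8 residual degrees of freedom and 5.56 prior degrees of freedom. P-values are 2-sided with Benjamini-Hochberg adjustment over all 22180 genes and were called under 0.05. The same fit was tested on simulated data with 200 changed genes. That simulation used independent normal noise and shifted every IL10KO array alike. It therefore cannot speak to the uneven WT arrays, and no result here rests on it. The number of arrays limits the precision.

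Members and lists were chosen with earlier results of these data known. Every called member was named with all its values. Of members never called, up to 3 per subfamily with the highest mean signal were named, and from the lists called genes only, up to 4 per list and comparison. Cftr, Tap1, Tap2, Tapbp, Kcnj8 and Kcnj11, uncalled, were named outside this rule after their values were seen, as were the genes marked so in the text. Alternatives were quantile normalization, centring of arrays, a filter on dim genes, the mean of probe sets, a trended and robust prior, fits with only the genotypes compared, each array left out in turn and 3 arrays left out together. Leaving out IL10KO replicates 2 and 3 was added after seeing the data.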

Additional observations from a re-analysis of the deposited data

How the results depend on the processing

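No sign turned among the 10 member calls under the 20 other settings, and 156 of 200 values kept their call. Abca12 and Abcb1a in IL10KO against WT, and Abcb1a and Abcg2 in DKO against IL10KO, were called under all 20. In IL10KO against WT, 5 members were called in the fit reported above, 8 after quantile normalization (4 higher, 4 lower), 3 with IL10KO replicate 1, SKO replicate 2 and WT replicate 3 left out at once, 9 without IL10KO replicates 2 and 3 together (4 higher, 5 lower), and 3 to 7 with 1 array left out. In DKO against IL10KO, 5 were called in the fit reported above, 3 with only the genotypes compared, and 2 to 6 with 1 array left out. In the difference of differences, 0 were called in the fit reported above and 1, Abcg2, after quantile normalization, after centring arrays on their medians, without the dimmest 33.3% of genes and with the trended and robust prior. There were 2, Abcg2 and Abcg5, without IL10KO replicates 2 and 3, and 0 to 1 with 1 array left out. That 1 was Abcb1a without IL10KO replicate 1 and Abcg2 without IL10KO replicate 2. DKO against SKO, SKO against WT and DKO against WT gave 0 members under every setting. Counts over all genes moved more. In IL10KO against WT they were 1805 in the fit reported above, 704 with only the genotypes compared, 1013 with the 3 arrays left out, 2923 without IL10KO replicates 2 and 3, and 783 to 3070 with 1 array left out. The counts for DKO against IL10KO were 1284, then 489 with only the genotypes compared, 2605 without IL10KO replicates 2 and 3, and 425 to 2361 with 1 array left out. In DKO against SKO they were 10, then 41 with only the genotypes compared, 21 with the 3 arrays left out and 5 to 20 with 1 array left out. The library labelled WT replicate 3 moved the counts of SKO against WT to 55 without it, from 0 with it, and of DKO against WT to 69, from 10 (50 and 78 with the 3 arrays left out). The difference of differences gave 143 genes, then 245 with the 3 arrays left out, 689 without IL10KO replicates 2 and 3, and 50 to 376 with 1 array left out. The cause of these shifts was not tested. The fit without IL10KO replicates 2 and 3 leaves 1 IL10KO array, which is assumed to vary like the other genotypes. Its counts therefore measure no spread within IL10KO. No paired analysis was possible because replicate numbers only follow sample order. With 3 arrays a genotype and no detection calls, small differences and dim members such as Abcb11 were beyond what these arrays can resolve.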

Other observations

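Abca13, a large lipid transporter of subfamily A singled out here after its values were seen, stood at 4.48 in WT replicate 1, against 3.25 to 3.94 on the other 11 arrays. DKO replicate 1 was the highest of the 12 arrays for 12 of the 48 members and the lowest for 3, so it was extreme for 31.2% of members, against 20.1% of all genes. IL10KO replicate 1 was extreme for 33.3% of members, against 38.1% of all genes. Abca17, a neighbour of Abca3 on chromosome 17 singled out after its values were seen, had 4.49, 4.26 and 4.37 in IL10KO, against 3.79, 3.92 and 3.99 in WT. Its difference of 0.47 ± 0.14 (SE, limma adjusted p = 0.0566) is opposite in sign to that of Abca3 and did not pass. Abca17 in WT replicates 1 and 2 lay below the lower quartile of genes on those arrays (3.97 and 4.02).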
